A study of Homo sapiens with 6 samples.

Results

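The genes described here encode the semaphorins, plexins, Eph receptors, SLITs, ROBOs, netrins and UNC5 proteins. They were chosen by name, as autosomal protein-coding RefSeq genes (hg38) whose symbol starts with SEMA, PLXN, EPHA, EPHB, SLIT, ROBO, NTN or UNC5 (SLITRK genes left out). A region counted as a member when it overlapped the span of such a gene or lay within 5 kb of it. The rule took 60 genes, of which 54 had at least 1 region, and 191 of the 35130 regions in the authors' deposited table. SEMA3D, SEMA3E, SEMA4A, EPHA5, NTN5 and UNC50 had none; UNC50 and the measured UNC5CL match the letters of the rule but are not netrin receptor genes.

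Axon guidance proteins steer growing nerve fibres and migrating cells by attraction and repulsion. Semaphorins signal through plexins, SLITs through ROBO receptors and netrins through DCC and the UNC5 receptors, while Eph receptors are tyrosine kinases that answer to membrane-bound ephrins on neighbouring cells. Several of them also act outside the nervous system, in blood vessels, in lymphocytes and in the adhesion of blood cells, and promoters of several, among them SEMA3B and SLIT2, are known to be methylated in cancers.

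The data are reduced representation bisulfite sequencing of M07e, an established acute megakaryoblastic leukemia line grown with GM-CSF, with 3 libraries from cells carrying a CRISPR knockout of DNMT3B, a de novo DNA methyltransferase, and 3 from control cells of genotype WT. The comparison asks where DNA methylation differs between these genotypes. The labels do not say whether the knockout is 1 clone or a pool, or whether replicates were separate cultures. All levels, differences and q-values given below come from the authors' deposited table. It holds 1 mean per group and region, so depth and the spread between libraries are unknown and no value has a replicate error. One group column is named for WT; the other carries a name used by no label and was read as the knockout because it is the only other genotype, and every direction below rests on that reading. A call required a deposited q under 0.01 together with a gap between the means of 25 percentage points or more. How that q treats the 3 libraries of a group is not stated, so a call is not shown to exceed the spread between libraries.

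The bases at both ends of a region were located on RefSeq promoter sequence (GRCh38.p14). In 2477 of 2477 regions lying inside a promoter window, the base 2 after the deposited start and the base 1 after the deposited stop were part of a CpG, and coordinates are given here from the first to the last of these CpG bases, 1-based on hg38. The deposited number of sites never exceeded the CpG cytosines of both strands, but exceeded the number of CpG dinucleotides in 1880 of the 2477 regions (75.9%), so that 1 CpG can count as 2 sites.

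RefSeq promoter windows, from 250 bases before to 50 after a gene start, were found for 51 of the 60 genes. The sequences below are shown because a called region lies in the window; capitals mark its bases. EPHB1 and EPHB4 are given as the 250 bases before the start, and EPHB2 and PLXNA4 as 30 bases at the called region inside the transcribed part (30 of its 34 bases at PLXNA4). The called region at SEMA5B reaches the edge of a window only with its first bases.
EPHB1 (chr3:134795010-134795259, plus strand): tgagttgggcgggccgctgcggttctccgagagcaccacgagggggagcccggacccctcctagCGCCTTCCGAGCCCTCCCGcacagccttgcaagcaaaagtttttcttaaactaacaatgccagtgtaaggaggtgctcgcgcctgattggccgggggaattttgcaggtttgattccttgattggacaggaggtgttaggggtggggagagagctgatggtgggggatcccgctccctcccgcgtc
EPHB4 (chr7:100827524-100827773, minus strand): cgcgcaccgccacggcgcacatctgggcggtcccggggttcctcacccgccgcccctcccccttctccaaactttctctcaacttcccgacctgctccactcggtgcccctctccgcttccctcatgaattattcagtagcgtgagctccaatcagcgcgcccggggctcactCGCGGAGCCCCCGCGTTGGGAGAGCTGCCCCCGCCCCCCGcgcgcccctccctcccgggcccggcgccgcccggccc
EPHB2 (chr1:22710858-22710887, plus strand): ggcggcggctgtgtgtgCGCCGCgccttgc
PLXNA4 (chr7:132576429-132576458, minus strand): GCGCTCCCGCTGAAGGAGGGAAACGCGGCG

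The EPHB1 region ran from base -186 to base -168 relative to the start and held 3 CpG dinucleotides, counted as 6 sites. At EPHB4 it ran from base -77 to base -38, with 6 dinucleotides and 12 sites. The EPHB2 region lay at bases 38 to 43 of the transcribed part, and its 5 sites belong to 3 CpG dinucleotides, the last of which ends 1 base past the region. The PLXNA4 region, bases 11 to 44, held 7 dinucleotides and 11 sites. MspI, the enzyme used to cut the DNA, recognises CCGG on both strands. This motif occurred 3 times in the full window of EPHB1, 8 times in those of EPHB4 and EPHB2 and 1 time in that of PLXNA4. Of the 85 windows of the axon guidance genes 71 held CCGG (83.5%), against 63.1% of all 34943 windows, and their median number of CpG dinucleotides was 21, against 14 over all windows.

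Methylation at axon guidance genes was called different at 18 of 191 regions (9.42%, exact 95% binomial interval 5.68 to 14.5), 13 higher and 5 lower in the knockout. Of all 35130 regions, 6.74% were called, 4.57% higher and 2.17% lower; at autosomal protein-coding genes with the same flank 7.29% were, 4.87% higher and 2.42% lower. The interval describes regions of this table, not libraries, and it includes both backgrounds, so the share called is close to that of other genes. The called regions lay in 16 genes, 11 with higher regions only, 3 with lower only (EPHB2, PLXNA1 and SEMA7A) and 2 with both (SLIT1 and SEMA5B). That is 29.6% of the 54 measured genes, against 16.1% of 12330 measured autosomal protein-coding genes, but a gene with more regions has more chances of a call: the axon guidance genes had a median of 3 regions and the others a median of 2. Among genes with 2 to 5 regions, 11 of 37 axon guidance genes (29.7%) and 18.3% of 5841 autosomal protein-coding genes had a called region. These shares of genes were given no interval and no test, so they are not read as an excess. The median member region stood at 29.9% in the knockout and 9.33% in the control, and its median difference was 20.9 points, beside 30.9%, 7.59% and 17.4 points over the whole table.

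**Figure D1:**
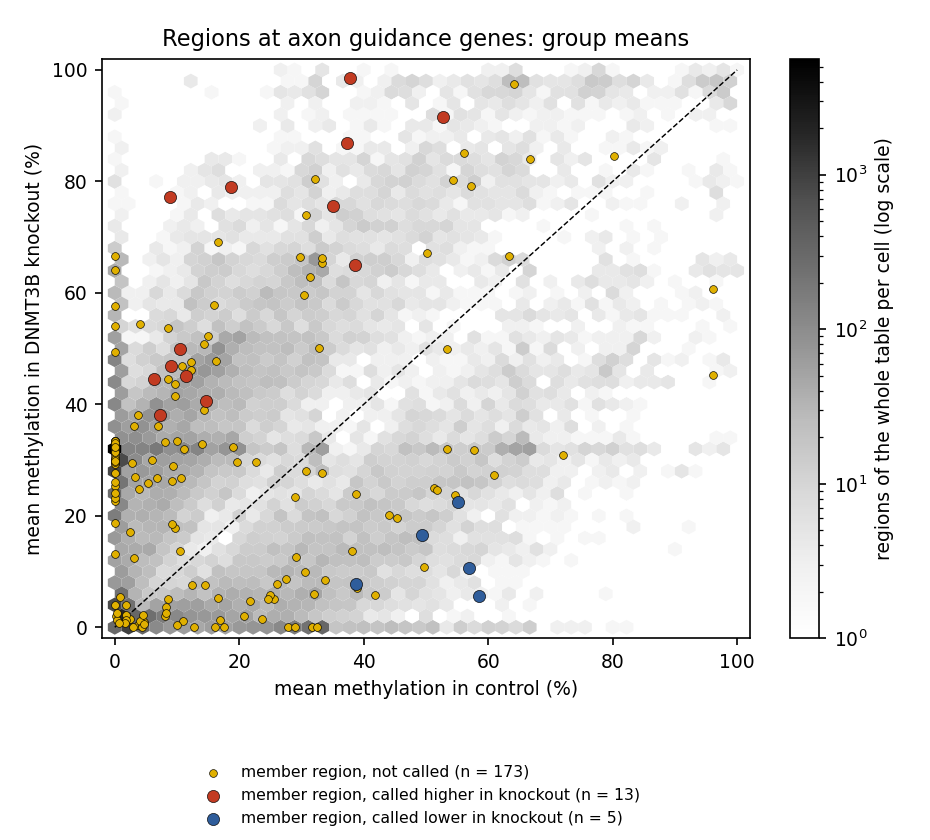
Mean methylation in the knockout (vertical axis, %) against the control (horizontal axis, %), with member regions as points and all 35130 regions of the table as grey cells shaded by their number on a log scale; the dashed line marks equal levels. The 13 regions called higher in the knockout lie above the line and the 5 called lower below it, and 41 member regions stack at a control mean of 0 and a knockout mean of 25% to 33.33%.

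A control mean of exactly 0 beside a knockout mean between 25% and 33.33% was found at 41 member regions (21.5%), against 21% of the whole table, and none of them was called. The mirrored position, with the knockout at 0, held 4 (2.09%), against 2.27% of the table. These regions were unevenly spread over the families: plexin genes had 17 among 39 regions (43.6%), semaphorin genes 11 of 49 (22.4%) and EphA genes 1 of 24 (4.17%). What part they have in the excess of higher over lower regions (126 against 65) was not tested; without both kinds the median difference of member regions was 8.7 points. No member region with a mean of exactly 0 in either group passed q, whatever the size of its gap. At PLXNB2, 13 sites stood at 49.3% in the knockout and 0 in the control, with a deposited Mann-Whitney p of 9.52e-05 and no call. The absence of a call at such regions therefore does not show equal methylation.

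Among the ligands, semaphorin genes held 6 called regions of 49, in 5 of 17 measured genes. The share of regions was 12.2% (exact 95% binomial interval 4.63 to 24.8), and its interval includes the 6.74% of all regions. SEMA3B, a secreted semaphorin gene studied as a tumor suppressor, had a called region of 10 sites at 75.6% in the knockout and 35.1% in the control (chromosome 3, 50273709 to 50273755, 560 bases past a start, q = 0.00124). Its other region, 18 sites farther into the gene, stood at 62.8% in the knockout and 31.4% in the control (q = 0.0283, not called). Both SEMA3B regions were thus higher in the knockout by 31.4 to 40.5 points. SEMA4G, a transmembrane semaphorin gene, was at 91.5% in the knockout and 52.8% in the control over 5 sites 82 bases past a start (chromosome 10, 100969586 to 100969612, q = 0.000748). SEMA6B, also a transmembrane semaphorin gene, was at 46.8% in the knockout and 8.99% in the control over 15 sites (chromosome 19, 4544447 to 4544521, q = 0.00813, the called member region closest to the q threshold). It was not called when the authors' Kolmogorov-Smirnov p was adjusted by the Benjamini-Hochberg method instead.

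SEMA7A and SEMA5B held the 2 semaphorin losses. SEMA7A encodes a GPI-anchored semaphorin that carries a blood group antigen and binds plexin C1 and integrins. Its called region of 6 sites fell to 10.7% in the knockout, against 56.9% in the control (chromosome 15, 74433319 to 74433335, 369 bases past a start, q = 2.98e-07). SEMA5B, with 6 regions the semaphorin gene with the most, changed in both directions. The region 44 bases past one of its starts was at 86.9% in the knockout and 37.2% in the control (chromosome 3, 123027680 to 123027719, q = 0.00071), while 5 sites 71336 bases past the nearest start fell to 22.5% in the knockout, against 55.1% in the control (122921890 to 122921902, q = 0.000316). Among the remaining semaphorin genes, SEMA4B, whose 3 regions differed by -9.85 to -2.47 points, stayed at or under 2.12% in the knockout and 11.02% in the control. Its region of -9.85 points passed q (0.00644) but not the size threshold. SEMA4D, the lymphocyte semaphorin CD100, stood at 2.50% in the knockout and 8.30% in the control. It also passed q (0.00921), with a difference of -5.80 points.

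SLIT genes encode secreted repellents. They held 3 called regions of 14 (21.4%, exact 95% binomial interval 4.66 to 50.8), an interval that includes the 6.74% of all regions. SLIT1 had 7 regions, with the largest fall among the called member regions and a large rise. The region 416 bases past its start was at 79.0% in the knockout and 18.7% in the control (chromosome 10, 97185442 to 97185543, 5 sites, q = 0.000312), and it also overlaps the readthrough gene ARHGAP19-SLIT1. The region 47568 bases past the start fell to 5.56% in the knockout, against 58.5% in the control (97138332 to 97138391, 6 sites, q = 4.84e-06). The 2 called regions of SLIT1 thus moved in opposite directions, by 60.3 and -53.0 points. SLIT3 had the largest difference of the called member regions, at 77.2% in the knockout and 8.95% in the control over 5 sites deep in the gene (chromosome 5, 168824305 to 168824326, 476813 bases past the start, q = 0.000303), while its 2 regions near the start were at 5.13% and 8.61% in the knockout and 25.6% and 27.5% in the control and were not called. SLIT2 had 4 regions, none called. Of these, 3 were higher in the knockout by 17.0 to 31.8 points, and the fourth, a single site, stood at 66.7% in the knockout and 63.3% in the control, where the deposited difference of 9.38 points is not that of the means.

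Netrin genes were the family in which lower regions outnumbered higher ones, 12 against 10, with a median difference of -3.2 points. Of their 22 regions 2 were called (9.09%, exact 95% binomial interval 1.12 to 29.2), and the interval includes the 6.74% of all regions. NTN1, the founding secreted netrin gene, held the called member region with the most sites, 63 over 832 bases, at 38.03% in the knockout and 7.21% in the control (chromosome 17, 9021756 to 9022587, q = 9e-09). At NTN1, 3 regions within 1000 bases of the end of the NTN1 span with the lower coordinate (9003087) differed the other way: they stood at 5.83%, 10.8% and 45.2% in the knockout and 24.9%, 49.7% and 96.1% in the control. None of these was called, and the first, 665 bases outside the span, passed q (0.00644) with a difference of -19.0 points. NTNG2, which encodes a membrane-anchored netrin G, had 9 regions, the most of the family. Its called region of 12 sites was at 65.1% in the knockout and 38.6% in the control (chromosome 9, 132163444 to 132163474, q = 0.00172), and its regions ranged in difference from -36.1 to 30 points. NTN4, a secreted netrin gene of basement membranes, had 1 region of 10 sites near a start, at 1.53% in the knockout and 23.6% in the control; its q was 2.65e-08 but the difference of -22.1 points was under the size threshold.

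**Figure D2:**
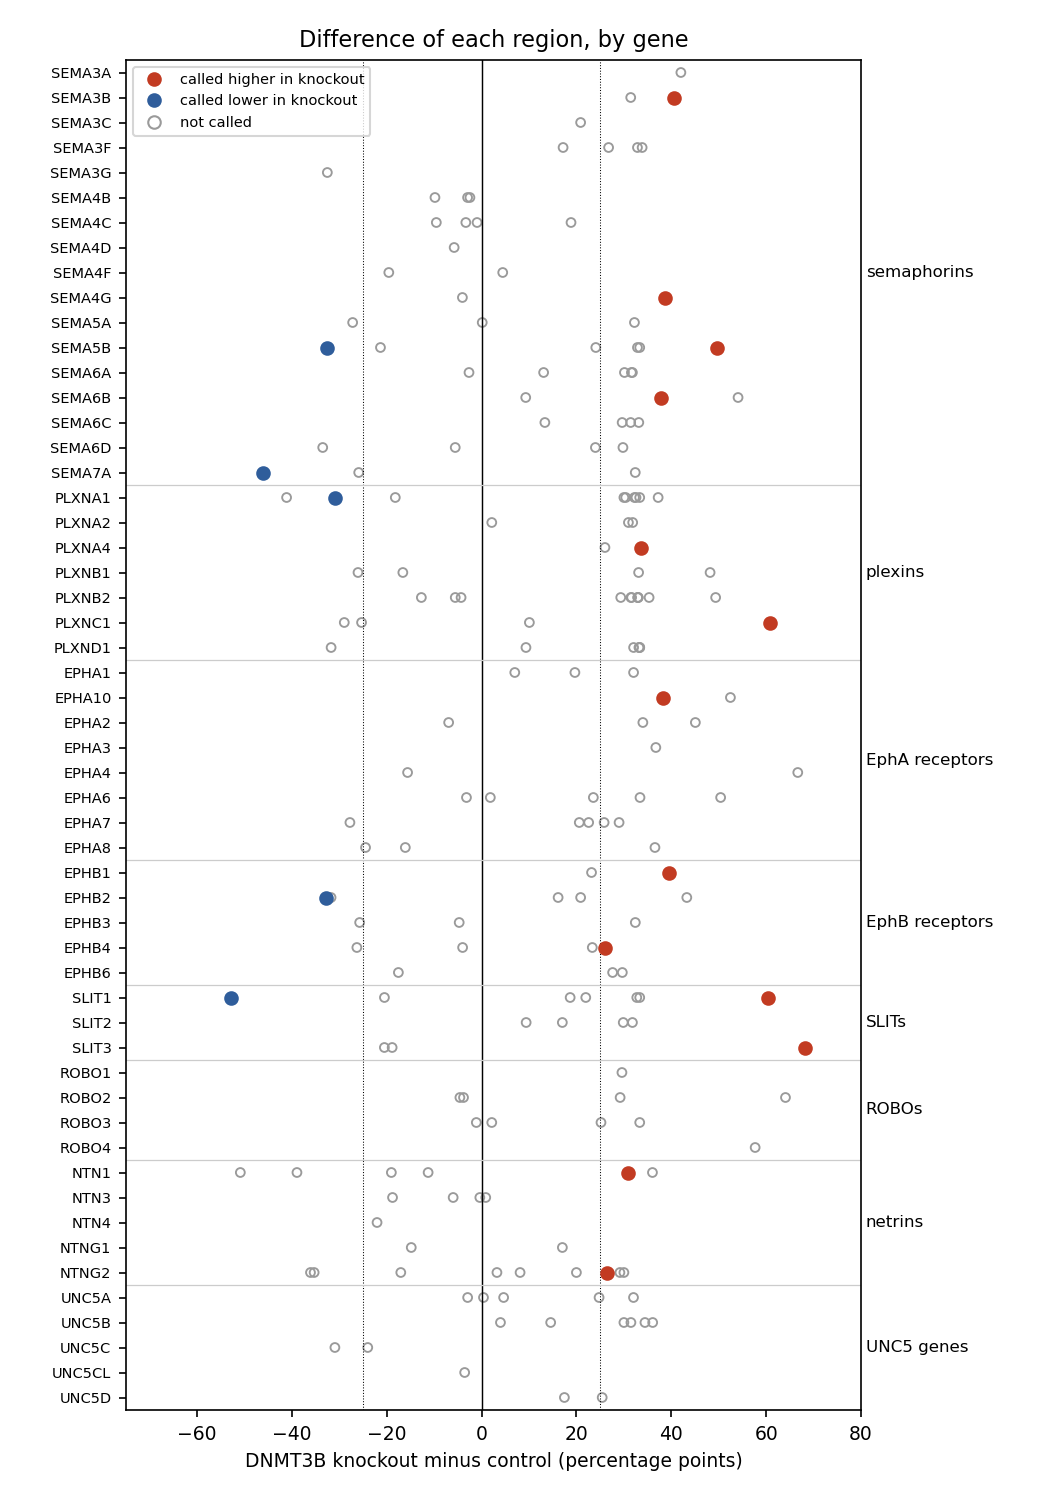
Difference in mean methylation of each region (knockout minus control, percentage points) for the 54 measured genes, grouped by family; filled points are called regions, open points are not, and dotted lines mark 25 points. The differences spread to both sides of 0 within most genes: 31 of the 45 genes with 2 or more regions had regions in both directions.

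Among the receptors, plexin genes held 3 called regions of 39, in PLXNC1, PLXNA4 and PLXNA1. The share was 7.69% (exact 95% binomial interval 1.62 to 20.9), and its interval includes the 6.74% of all regions. PLXNC1, the gene of the receptor of SEMA7A, was at 98.6% in the knockout and 37.8% in the control over 7 sites 434 bases before a start (chromosome 12, 94148116 to 94148143, q = 0.00164). The next region, 417 bases past that start with 19 sites, stood at 8.42% in the knockout and 33.7% in the control and was not called (q = 0.0604). PLXNA4, whose product is a co-receptor for secreted semaphorins, was at 45.1% in the knockout and 11.4% in the control over the 11 sites shown above (chromosome 7, 132576427 to 132576460, q = 0.000402). PLXNA1, also a co-receptor gene, fell to 7.75% in the knockout, against 38.7% in the control, over 5 sites 671 bases past its start (chromosome 3, 126983786 to 126983818, q = 0.0015). PLXNB2 had 11 regions, the most of any member gene. They ranged in difference from -12.7 to 49.3 points, and none was called. Most of them had a mean of 0 in one group, where no member region passed q.

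Eph receptor genes held 4 called regions of 41, 1 at an EphA and 3 at EphB genes. The shares were 4.17% of 24 EphA regions (exact 95% binomial interval 0.105 to 21.1) and 17.6% of 17 EphB regions (3.8 to 43.4). Both intervals include the 6.74% of all regions. EPHA10, which encodes an Eph receptor without an active kinase, was at 44.5% in the knockout and 6.35% in the control over 5 sites (chromosome 1, 37764351 to 37764389, q = 1.14e-06). EPHB1 was at 49.96% in the knockout and 10.5% in the control (chromosome 3, 134795074 to 134795092, q = 1.16e-05) and EPHB4, a receptor gene of venous endothelium, at 40.6% in the knockout and 14.6% in the control (chromosome 7, 100827561 to 100827600, q = 0.00115). The EPHB4 region also overlaps SLC12A9, and its 26.1 points are the smallest called difference. EPHB2, the EphB gene with the most regions (5), fell to 16.6% in the knockout, against 49.3% in the control, at the 6 bases shown above (chromosome 1, 22710875 to 22710880, q = 0.00647), a call that was also lost with the Benjamini-Hochberg adjustment. Farther into EPHB2, 7 sites stood at 32.0% in the knockout and 11.1% in the control, with q = 0.000877 and a difference of 20.9 points, under the threshold. EPHA6 and EPHA7, with 5 regions each, had none called and differences from -3.20 to 50.4 and from -27.8 to 29.0 points.

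No region was called among 10 at the ROBO genes, which encode the SLIT receptors, or among 16 at the UNC5 genes. The UNC5 regions lie at the netrin receptor genes UNC5A to UNC5D, except 1 at UNC5CL, which encodes an UNC5C-like protein that is not a netrin receptor. The upper ends of the exact 95% binomial intervals were 30.8% for the ROBO and 20.6% for the UNC5 genes, above the 6.74% of all regions. ROBO2, whose 4 regions ranged in difference from -4.59 to 64.1 points, and ROBO4, an endothelial ROBO gene at 57.7% in the knockout and 0 in the control over 5 sites, had large differences with q = 1. The ROBO2 region of 64.1 points also had a control mean of 0, and no member region with a 0 in either group passed q. The deposited Mann-Whitney p was 0.000633 at this ROBO2 region and 0.00511 at ROBO4. ROBO3 also had 4 regions, from -1.12 to 33.33 points. UNC5B, with 6 regions the UNC5 gene with the most, had all of them higher in the knockout, by 3.97 to 36.1 points, and both regions of UNC5C were lower, at 20.1% and 23.7% in the knockout and 44.1% and 54.6% in the control.

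**Figure D3:**
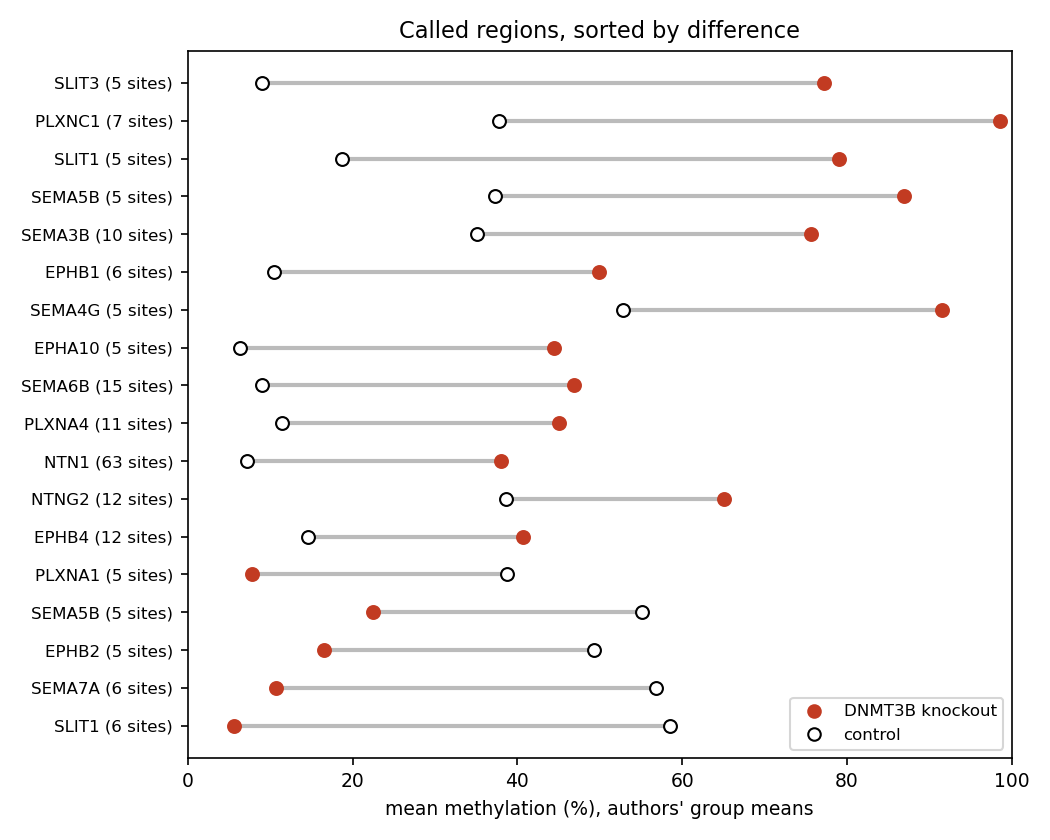
Mean methylation (%) in the knockout (filled) and the control (open) at the 18 called regions, sorted by difference, with the number of sites in brackets. The 5 regions that fell lie between 5.56% and 22.5% in the knockout and between 38.7% and 58.5% in the control, and the 13 that rose lie above 38% in the knockout.

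The 13 called higher regions had a median level of 65.1% in the knockout, against 14.6% in the control, and the 5 called lower ones one of 10.7% in the knockout, against 55.1% in the control. All 5 lower regions had 5 or 6 sites, whereas the higher ones had 5 to 63. Among the 48 member regions of at least 10 sites 6 were called, all higher (12.5%, exact 95% binomial interval 4.73 to 25.2), against 17.3% of 6104 such regions at autosomal protein-coding genes, 11.7% higher and 5.55% lower. Regions just outside the thresholds included EPHA8, where 46 sites across the start stood at 13.6% in the knockout and 38.1% in the control (q = 0.00013, difference -24.5 points), SEMA6D, at 27.3% in the knockout and 60.9% in the control across a start (q = 0.0111), and EPHB3, at 19.6% in the knockout and 45.4% in the control (q = 0.0125). Others just outside were higher in the knockout, among them EPHA10, with a second region at 69.1% in the knockout and 16.7% in the control (q = 0.0236).

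By the planned split, 15 of 163 member regions inside the gene spans were called (9.2%, exact 95% binomial interval 5.24 to 14.7). In the flanks 3 of 28 were (10.7%, 2.27 to 28.2). Within 1000 bases of a gene start, the alternative to the promoter window, lay 11 of the 18 called regions. Of 57 regions within 1000 bases of a RefSeq start of their own member gene 11 were called (19.3%, exact 95% binomial interval 10 to 31.9), 8 higher and 3 lower. Within 1000 bases of a start of any autosomal protein-coding gene, 8.95% of 8992 regions were called (5.88% higher and 3.07% lower). Touching the promoter window of their own gene were 15 member regions, of which 5 were called, 4 higher and 1 lower (exact 95% binomial interval 11.8 to 61.6). Of 2980 regions touching the window of any autosomal protein-coding gene 7.75% were called, 5% higher and 2.75% lower. Farther from a start of their own gene, 3 of 96 were called (3.12%, 0.649 to 8.86), 1 higher and 2 lower, against 5.43% of 12129 background regions (3.71% higher and 1.71% lower). In all these comparisons by location the classes are not fully alike. A background region was placed by the starts of any autosomal protein-coding gene within reach. A member region near the start of a neighbouring gene only was not counted as near a start. Starts were those of the promoter entries only, for members and for all genes, so a region at the upstream edge of a gene span could count as farther. Uncalled regions inside a gene span lay at -7444 bases from the nearest start used at EPHB6, and at -404184 and -385607 at ROBO2. Others lay at -3691 and -5489 bases at PLXNB2 and at -1758 at SEMA4D. The remaining 38 member regions, with 4 called, belong to genes without an entry in the promoter table (EPHA10, NTN1, NTN3, NTNG2, SEMA3A, SEMA6A, SEMA6B, UNC5B and UNC5D). The median level of start-near member regions was 24.8% in the knockout, against 18.7% in the control, while those of all autosomal protein-coding genes had 7.27% in the knockout and 3.86% in the control. Regions fixed at 0 in the control and 25% to 33.33% in the knockout, none of them called among members, made up 10.5% of the start-near and 30.2% of the farther member regions, against 8.25% and 29.9% at all autosomal protein-coding genes. The difference between the locations was given no test of its own, since regions of 1 gene and of the same libraries are not independent.

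**Figure D4:**
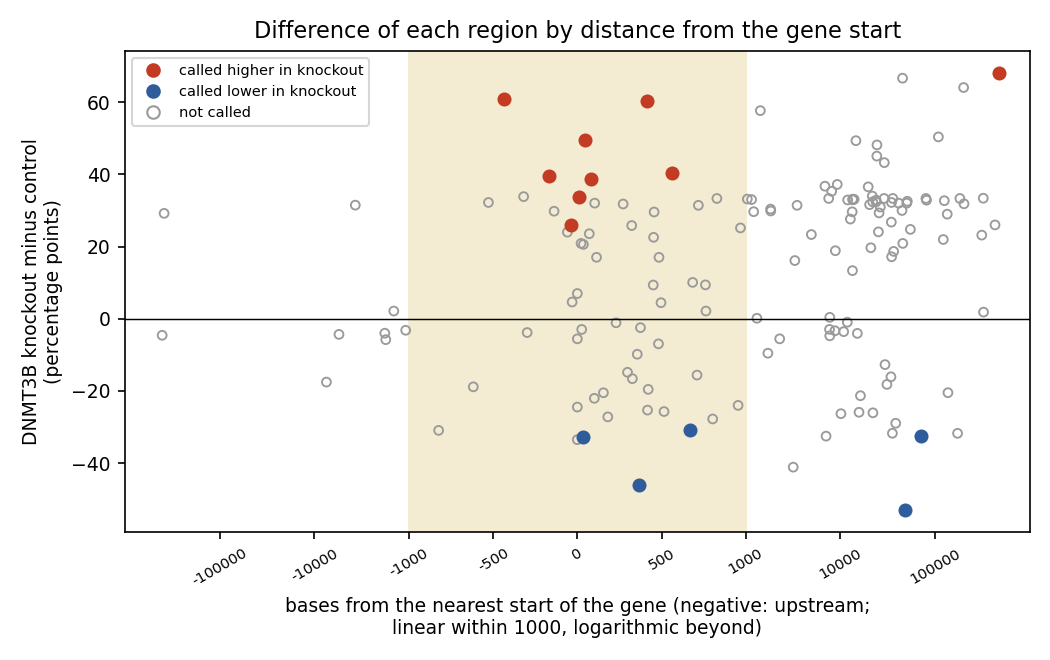
Difference of each member region (knockout minus control, percentage points) against its distance in bases from the nearest RefSeq start of its gene, linear within 1000 bases (shaded) and logarithmic beyond, for regions of genes with a known start. Of the 14 called regions shown as filled points, 11 lie in the shaded range, 8 above and 3 below 0.

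**Figure D5:**
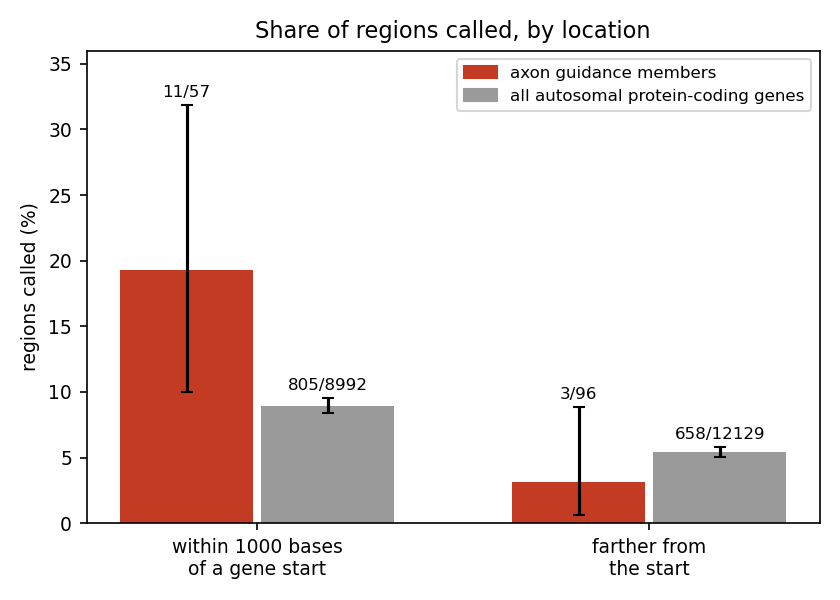
Share of regions called (%) within 1000 bases of a gene start and farther away, for the axon guidance genes and for all autosomal protein-coding genes, with exact 95% binomial intervals over regions and the counts above the bars. Member regions were placed by the starts of their own gene, the others by those of any autosomal protein-coding gene. Near starts the bars stand at 19.3% and 8.95%, farther away at 3.12% and 5.43%.

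Other genes of the pathway, listed by name with earlier results of these data known, were read in the same way. The list of 59 genes takes in other ligands, co-receptors, cytoplasmic adaptors and cytoskeletal effectors. Of their 212 regions 17 were called (8.02%, exact 95% binomial interval 4.74 to 12.5), 13 higher and 4 lower, in 13 of 53 measured genes. This share is near the 7.29% of regions at autosomal protein-coding genes. Among the called partner regions were some at the collapsin response mediators, which relay semaphorin signals to microtubules. These genes were picked after their values were seen, and their own share of regions called was not computed. CRMP1 was at 58.0% in the knockout and 3.22% in the control over 19 sites, DPYSL5 at 39.6% in the knockout and 9.48% in the control over 53 sites, and DPYSL3 at 89.99% in the knockout and 49.6% in the control. DPYSL4 fell at 2 regions, to 26.1% and 27.9% in the knockout, against 70.7% and 90.4% in the control, and rose at another region, to 65.5% in the knockout, against 14.9% in the control. SHH, a morphogen that also guides axons, was at 92.5% in the knockout and 46.7% in the control. GPC1, a heparan sulfate proteoglycan gene, rose at 2 regions, and TIAM1 fell to 2.61% in the knockout, against 35.8% in the control, over 23 sites. With the authors' Kolmogorov-Smirnov p adjusted over all regions by the Benjamini-Hochberg method, 6 partner regions were called instead of 17, all 6 higher in the knockout, so that the falls at DPYSL4 and TIAM1 were no longer called. Rises were lost as well, since 6 higher regions were called instead of 13. Among those lost were the rises at DPYSL3 and DPYSL4, whose deposited q (0.00337 and 0.00935) exceeded that of a lost fall at DPYSL4 (0.00314).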

How the data were processed

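Per the labels' protocols, DNA was digested with MspI, ligated to methylated adapters, bisulfite converted and amplified. Per the submitters' processing notes the tools were methylKit, Bismark, HISAT2, Trimmomatic and FastQC, with build hg38 and no versions. Which program made the regions was not found in the sources used here. In 1 table the authors deposited, per region, the mean methylation of each group in percent, the mean difference in percentage points, the count of CpG sites, and p-values (Mann-Whitney, 2-dimensional Kolmogorov-Smirnov) and q-values, per the file headers. The deposited difference equalled the difference of the means within 0.01 points in all but 1 member region.

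From these, regions were assigned to genes of RefSeq GRCh38.p14 (60 members, flank 5000 bases) and called at q under 0.01 and 25 points (Python 3.11.15, pandas 2.3.3, scipy 1.17.1). No new test per region was made. Assignment, calling and adjustment were tested on simulated data. The members, gene list and naming rule (genes with a called region, and per family the gene with the most regions) were chosen with earlier results of these data known; genes named for other reasons (SEMA4B, SEMA4D, SEMA4F, SLIT2, NTN4, EPHA8, EPHB3, SEMA6D, ROBO4, UNC5C and the partner genes) were chosen after their values were seen. Alternatives varied thresholds, adjustment, sites, flank and location. Sequences are from RefSeq.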

Additional observations from a re-analysis of the deposited data

How the results depend on the processing

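Calls depended on the thresholds. At a difference of at least 40 points 7 member regions in 6 genes and 11 partner regions were called, and with q under 0.001 11 member regions in 9 genes and 5 partner regions. With at least 10 sites these numbers were 6, 6 and 7. The partner regions called also moved to 26 with q under 0.05, to 6 with Benjamini-Hochberg adjustment of the Kolmogorov-Smirnov p and to 28 with a flank of 50 kb. For members, that adjustment left 16 regions in 14 genes, without EPHB2 and SEMA6B. The lower calls among members, 5 in the main analysis, were 9 at a difference of at least 10 points or q under 0.05, 8 with a flank of 50 kb, 2 at 40 points, 3 with q under 0.001 and 0 with at least 10 sites. Lower partner calls, 4 in the main analysis, were 2 without a flank or with at least 10 sites, 9 with a flank of 50 kb, and 0 with q under 0.001 or the Benjamini-Hochberg adjustment. The count by location was 5 in the promoter window and 11 within 1000 bases of a start. The median difference of member regions was 8.7 points without regions at 0 in one group and 25% to 33.33% in the other, and 28.2 points with at least 10 sites; a mean weighted by sites was 13.6 points, against the median of 20.9 points. The other alternatives kept the total counts of called regions and genes within 1.5 times. For members, some of them could not change the counts. Leaving out regions at 0 in one group and 25% to 33.33% in the other removed only uncalled regions. Requiring at least 5 sites removed only the single SLIT2 site, which was not called, and recomputing the difference altered only that region. Since the alternatives leave each deposited difference as it is, apart from the difference recomputed from the means, they say nothing about the stability of directions. No paired analysis was possible because the table holds group means only, and for the same reason no replicate could be left out. Depth is unknown.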

Other observations

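The number of sites equalled the CpG cytosines of both strands in 1403 of the 2477 regions inside promoter windows (56.6%), and the median region had 1.67 sites per CpG dinucleotide. The base at the deposited start itself was part of a CpG in 13.4% of these regions and the base after it in 51.1%. Of the 191 member regions 74 had exactly 5 sites, among them 8 of the 18 called ones, and 94 had q = 1. Adjacent regions can differ: at SEMA4F, 9 sites stood at 5.09% in the knockout and 24.7% in the control, while the 10 sites of the next region stood at 84.6% in the knockout and 80.1% in the control.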
